A study of Homo sapiens with 6 samples.

Results

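The genes described here encode the core of the extrinsic, or death receptor, route to cell death: the ligand TRAIL (TNFSF10), the receptors TNFRSF10A, TNFRSF10B, TNFRSF10D, TNFRSF21, TNFRSF1A and FAS, the adaptor FADD, the initiator protease CASP8 and its regulator CFLAR. They were chosen by name from the pathway, and every probe set annotated to a single one of these symbols was taken. The list holds 10 genes, of which 9 had such a probe set (28 probe sets in all) among 11963 genes so annotated on the array. TNFRSF10A had none in the annotation used and was not analysed here. The members and the other gene lists below were drawn up with earlier results of these data known.

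Transcripts were measured on 6 Affymetrix oligonucleotide arrays of PC3 cells, a human prostate cancer line that grew out of a bone metastasis. By their labels, 3 arrays (replicates 4 to 6) carry RNA of cells overexpressing PSMA (prostate-specific membrane antigen, encoded by FOLH1) from the plasmid pLNCX-PSMA. The other 3 (replicates 1 to 3) carry control RNA, called wild type in title and genotype and vector only in the source label. Per the labels' protocols both kinds of cells were transfected and selected with puromycin in RPMI culture, and the labels do not say whether the selected cells were a clone or a pool, nor whether replicates were separate cultures. The comparison asks which of these transcripts differ between PSMA-labelled and control-labelled cells.

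Ligands of the tumour necrosis factor family bring their receptors together at the cell surface, and the cytoplasmic death domains of FAS and the TRAIL receptors then bind FADD, while that of TNFRSF1A binds TRADD. FADD recruits procaspase 8, which is activated by dimerisation and cuts downstream caspases, or the BCL2-family protein BID where the mitochondrial route is needed. The CFLAR product, c-FLIP, resembles CASP8 without its protease activity and takes its place in the complex. Decoy receptors bind TRAIL without passing on the death signal. Prostate cancer lines have long been used to study sensitivity to TRAIL and FAS ligand.

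The signal of the transfected gene ran against the labels. The brightest FOLH1 probe set (217487_x_at, annotated to FOLH1 and its paralog FOLH1B) read 15.1, 8.58 and 13.7 on arrays labelled PSMA, against 477, 417 and 548 on arrays labelled control. The probe set of FOLH1 alone (217483_at) read 28.1 ± 3.8 on PSMA arrays and 60.5 ± 0.914 on control arrays (SD, n = 3 each). All directions below therefore follow the labels as deposited, and "rose" or "fell" means higher or lower on the arrays labelled PSMA. Intensities are GCRMA values on a linear scale in arbitrary units. Log2 values of arrays within a group correlated across probe sets at r = 0.9975 to 0.9981 (6 pairs), and between groups at 0.9875 to 0.9879 (9 pairs), and probe sets are not independent. Each array measured RNA of a whole culture, so less transcript in every cell and fewer cells with the transcript cannot be told apart. Of the epithelial markers, 5 of 5 measured read above the median intensity on all 6 arrays, and their summed intensity was 13233 to 13716 on PSMA arrays and 16514 to 17012 on control arrays, whose part in the results was not tested. The prostate luminal markers measured (3 of 5, among them TMPRSS2), known to be low or absent in PC3, did not exceed 36.8 on any array. The 6 leucocyte markers measured summed to 88.8 to 99.3 on PSMA arrays and 89.9 to 95.2 on control arrays, and none exceeded 30.9. The 7 fibroblast and endothelial markers summed to 217 to 238 on PSMA arrays and 232 to 249 on control arrays; COL1A1, the brightest, reached 94.9, and 1 of the 7 was above the median intensity on all arrays.

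Among the members, the receptors TNFRSF21, FAS and TNFRSF10B and the protease CASP8 fell on the arrays labelled PSMA, the adaptor FADD rose, and TNFRSF1A and CFLAR did not pass the test. The size was moderate: 1.58-fold lower for TNFRSF21 and FAS, 1.38-fold lower for CASP8, 1.17-fold lower for TNFRSF10B and 1.18-fold higher for FADD, and 0 members reached 2-fold. A gene was tested, on its brightest single-gene probe set, when that probe set read above the overall median intensity (52.53) on 3 or more of the 6 arrays, and 7 of the 10 members were. All 7 exceeded it on every array. At a limma adjusted p below 0.05, 5 of the 7 (71.4%) were called, 1 higher and 4 lower, while 63.6% of all 7035 genes tested were called, 30.1% higher and 33.5% lower. The share called is thus close to that of all genes. Tested against a minimum fold of 1.5, 0 of the 7 members passed (0 at an unadjusted p under 0.05), beside 7.48% of all genes. The median log2 difference was -0.22 over the 7 members and -0.01 over all genes.

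**Figure D1:**
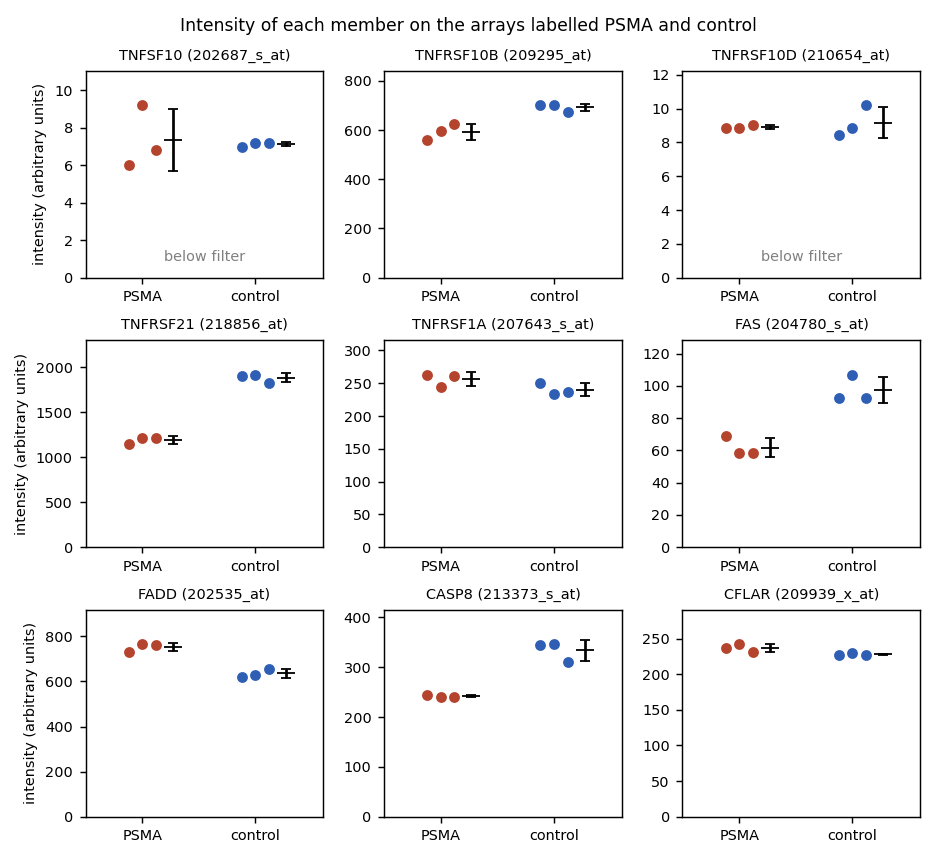
Intensity (arbitrary units, linear axes from 0) of the unfiltered brightest probe set of each of 9 members, with 3 arrays labelled PSMA on the left and 3 labelled control on the right of each panel; points are arrays, and the bar with caps is mean ± SD. The PSMA points lie below all control points for TNFRSF21, FAS, CASP8 and TNFRSF10B and above them for FADD and CFLAR (CFLAR did not pass, and its sign turned with probe sets averaged), while TNFSF10 and TNFRSF10D read under 11 on every array.

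Sequences just upstream of an annotated start are shown for the 3 called members with the largest decreases, and for FADD, the member that rose. They are the 250 bases before a start listed in the RefSeq promoter table (GRCh38.p14), 5′ to 3′ on the gene's own strand; the table held 7 of the 10 members. For FAS and CASP8, with 3 starts each in that table, the most upstream of the 3 is used. The FAS window lies inside the span that the RefSeq gene table gives for FAS, while the others end where the gene's span begins. Capitals mark matches, on either strand, to the GC box GGGCGG, the GAS element TTCNNNGAA bound by STAT proteins, the core AANNGAAA recognised by interferon regulatory factors, the AP-1 site TGANTCA, the E-box CACGTG or the NF-kB motif.
TNFRSF21, chr6:47309906-47310155, minus strand: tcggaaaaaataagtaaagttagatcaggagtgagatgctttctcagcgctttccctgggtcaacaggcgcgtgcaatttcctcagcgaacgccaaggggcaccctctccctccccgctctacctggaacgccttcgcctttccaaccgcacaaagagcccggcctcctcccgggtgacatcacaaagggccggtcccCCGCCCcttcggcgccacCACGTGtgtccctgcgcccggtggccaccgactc
FAS, chr10:88990548-88990797, plus strand: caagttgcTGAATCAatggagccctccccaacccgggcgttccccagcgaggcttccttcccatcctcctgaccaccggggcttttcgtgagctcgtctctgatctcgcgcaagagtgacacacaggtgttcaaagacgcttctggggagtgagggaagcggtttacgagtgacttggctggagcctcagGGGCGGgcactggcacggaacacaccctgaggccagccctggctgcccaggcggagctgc
CASP8, chr2:201233213-201233462, plus strand: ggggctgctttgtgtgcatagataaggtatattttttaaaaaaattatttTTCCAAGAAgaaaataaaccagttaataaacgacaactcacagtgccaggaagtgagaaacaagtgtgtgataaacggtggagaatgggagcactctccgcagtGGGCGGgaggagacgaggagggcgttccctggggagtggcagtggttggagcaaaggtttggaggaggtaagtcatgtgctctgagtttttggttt
FADD, chr11:70203046-70203295, plus strand: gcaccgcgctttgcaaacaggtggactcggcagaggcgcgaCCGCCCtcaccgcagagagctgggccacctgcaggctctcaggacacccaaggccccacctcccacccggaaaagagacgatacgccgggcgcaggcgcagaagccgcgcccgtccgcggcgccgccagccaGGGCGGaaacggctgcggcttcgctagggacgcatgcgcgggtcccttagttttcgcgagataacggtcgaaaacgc
The GC box, bound by SP-family factors, occurred once in the windows of TNFRSF21, FAS and CASP8 and at 2 places in that of FADD, while 42.6% of the 35116 windows of the same length held it. TNFRSF21 had 1 E-box (6.34% of all windows), FAS 1 AP-1 site (6.57%) and CASP8 1 GAS element (6.57%). Neither the core of interferon regulatory factors (20.3% of all windows) nor the NF-kB motif (9.96%) matched in these 4 windows. The 3 members shown here that fell shared, of the motifs searched, the GC box, which FADD also held. TNFRSF10B, which also fell, is not among the windows shown. The GC content was 62% for TNFRSF21, 62.8% for FAS, 45.6% for CASP8 and 68.8% for FADD. These matches describe letters in the windows, and binding was not measured.

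TNFSF10 encodes TRAIL, the ligand of TNFRSF10A and TNFRSF10B, and its signal lay at the low end of the table in both groups. Its 3 probe sets read 5.34 to 9.2 across all 6 arrays, under the 25th percentile of all values (13.02), and were not tested. The brightest, 202687_s_at, read 6.0, 9.2 and 6.83 on PSMA arrays, against 6.99, 7.18 and 7.18 on control arrays. The groups overlapped on all 3, with log2 differences of -0.12 to 0.08. The background correction compresses such dim signals, so these readings do not measure a level. With no filter applied, the log2 difference of TNFSF10 was 0.02 (95% interval -0.32 to 0.36, limma adjusted p = 0.923).

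TNFRSF10D encodes a TRAIL decoy receptor with a truncated death domain, and its single probe set was as dim. It read 8.84, 8.82 and 9.02 on PSMA arrays and 8.45, 8.83 and 10.2 on control arrays. The groups overlapped. The unfiltered log2 difference was -0.04 (95% interval -0.21 to 0.14, limma adjusted p = 0.749). TNFRSF10C, the other decoy receptor gene of the cluster and no member here, had single-gene probe sets that averaged 13.3 ± 3.1 and 8.92 ± 0.529 on PSMA arrays and 12.3 ± 0.65 and 8.93 ± 0.375 on control arrays (SD, n = 3).

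TNFRSF10B, the TRAIL receptor also called DR5, fell on all 3 of its probe sets, by an amount that depended on the probe set. The brightest, 209295_at, read 559, 595 and 625 on PSMA arrays, against 701, 701 and 674 on control arrays. Each PSMA array lay below each control array. The log2 difference was -0.22 (SE 0.0515, 95% interval -0.34 to -0.11, limma adjusted p = 0.00488), larger in size than that of 51.3% of all genes tested. The other probe sets gave larger differences: 209294_x_at read 44.6, 39.0 and 48.5 on PSMA arrays and 68.0, 69.1 and 72.3 on control arrays, a log2 difference of -0.67. For 210405_x_at the readings were 40.9, 47.0 and 42.3 on PSMA arrays and 71.7, 71.3 and 73.4 on control arrays, a log2 difference of -0.74. These last 2 exceeded the filter value on control arrays alone, so that passing it favoured a difference, and the x in their names marks probes that may match other transcripts too. With the probe sets averaged, these 2 included, the log2 difference of TNFRSF10B was -0.54, so the same limit applies to the average.

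TNFRSF21 encodes DR6, a death domain receptor known for roles in neurons and in lymphocyte responses. Its difference was the largest of the 7 tested members, though level with that of FAS after rounding (both -0.66). The probe set 218856_at read 1142, 1216 and 1214 on PSMA arrays, against 1905, 1918 and 1829 on control arrays. The groups stood far apart relative to their spread, 1191 ± 42 on PSMA arrays and 1884 ± 48.3 on control arrays (SD, n = 3 each). The log2 difference was -0.66 (SE 0.0459, 95% interval -0.77 to -0.56, limma adjusted p = 4.97e-06), and 89% of all genes tested differed by less. The second probe set, 214581_x_at, read 378, 409 and 403 on PSMA arrays and 697, 645 and 630.3 on control arrays, a log2 difference of -0.73 (limma adjusted p over probe sets 1.21e-05). Both probe sets thus gave the same direction and a similar size. The x in the name of the second marks probes that may match other transcripts too.

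FAS encodes the receptor of FAS ligand, the prototype of death receptors. Its brightest probe set, 204780_s_at, read 68.7, 58.3 and 58.3 on PSMA arrays, against 92.8, 107 and 92.5 on control arrays. All PSMA arrays were lower than all control arrays. The log2 difference was -0.66 (SE 0.0819, 95% interval -0.85 to -0.47, limma adjusted p = 0.000146), and 88.8% of all genes tested differed by less. Groups did not overlap on 67.3% of all probe sets tested. Every one of the 4 FAS probe sets had PSMA arrays below control arrays without overlap, with log2 differences of -0.72 to -0.33. The second one tested, 204781_s_at, read 55.1, 44.5 and 46.5 on PSMA arrays and 61.5, 64.1 and 57.3 on control arrays (log2 difference -0.33, limma adjusted p over probe sets 0.00876). It exceeded the filter value on 1 PSMA array and 3 control arrays. The control arrays alone thus met the filter, which favoured a difference. The other 2, 215719_x_at and 216252_x_at, were below the filter and not tested; they averaged 34.7 ± 5.31 and 19.4 ± 1.07 on PSMA arrays and 57.3 ± 8.49 and 32.1 ± 2.71 on control arrays (SD, n = 3). Signals this close to the filter value depend more on the background correction than those of the brighter members. The x in 215719_x_at and 216252_x_at also marks probes that may match other transcripts.

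TNFRSF1A encodes the main receptor of tumour necrosis factor, which assembles a survival complex before any death-inducing one. It read 263, 244 and 261 on PSMA arrays, against 251, 233 and 237 on control arrays. The groups overlapped, and the log2 difference of 0.09 (95% interval -0.02 to 0.20) did not pass (limma adjusted p = 0.145).

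FADD, the adaptor that links the death domains of receptors to the death effector domains of CASP8, was the one member to rise. Its single probe set, 202535_at, read 732, 765 and 762 on PSMA arrays, against 621, 629 and 656 on control arrays. The groups did not overlap. The log2 difference was 0.24 (SE 0.044, 95% interval 0.14 to 0.34, limma adjusted p = 0.0013), larger in size than that of 54.8% of all genes tested, which places it near the middle of them.

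CASP8 encodes the initiator protease of the pathway. The probe set 213373_s_at read 244, 240.5 and 241 on PSMA arrays, against 345, 346 and 309.6 on control arrays. The PSMA arrays were close together and all lower than the lowest control array. The log2 difference was -0.46 (SE 0.0533, 95% interval -0.59 to -0.34, limma adjusted p = 9.14e-05), and 79.1% of all genes tested differed by less. The dim second probe set, 207686_s_at, averaged 25.3 ± 1.99 on PSMA arrays and 31.1 ± 2.79 on control arrays (SD, n = 3), also without overlap, and was not tested.

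CFLAR had 11 probe sets, more than any other member, and they did not give 1 answer. The gene is spliced into long and short forms of c-FLIP, and the sources used here do not pair probe sets with forms. All 4 tested probe sets also carry the x that marks probes that may match other transcripts. What sets the probe sets apart was not tested. The brightest, 209939_x_at, read 237, 242 and 231 on PSMA arrays, against 227, 229 and 227 on control arrays. The values did not overlap, yet the log2 difference was 0.06 (95% interval -0.04 to 0.15) and did not pass (limma adjusted p = 0.265). Nor did 210563_x_at, with 196, 199 and 205 on PSMA arrays and 198, 194 and 207 on control arrays, a log2 difference of 0.00 with overlapping groups. The dimmer 211316_x_at fell, with 57.4, 68.4 and 74.7 on PSMA arrays and 92.2, 79.3 and 85.4 on control arrays (log2 difference -0.36, limma adjusted p over probe sets 0.0117). The fourth tested, 210564_x_at, had a log2 difference of -0.23 (95% interval -0.51 to 0.05, limma adjusted p over probe sets 0.13). The remaining 7 lay below the filter, with log2 differences between -0.30 and 0.02. Averaging the 4 probe sets that passed the filter turned the sign of the CFLAR difference, to -0.13 (limma adjusted p = 0.0317), so no direction is given for this gene.

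**Figure D2:**
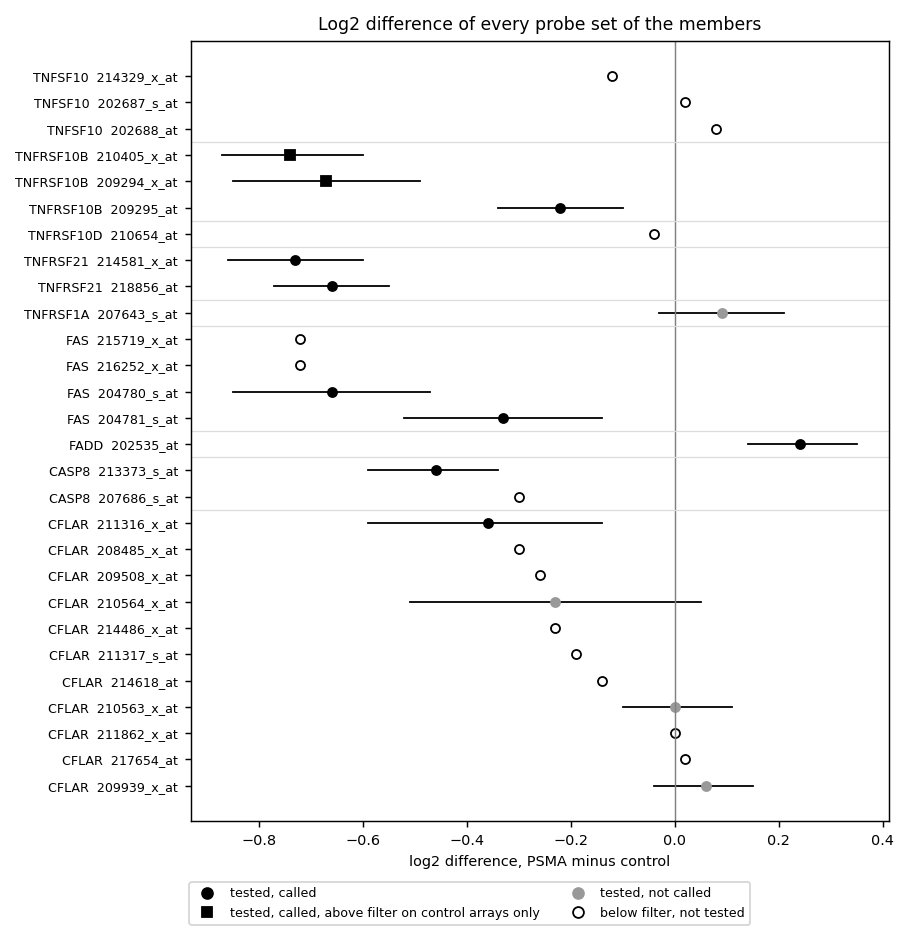
Log2 difference (PSMA minus control) of all 28 probe sets of 9 members, 1 per row; bars are 95% intervals from limma, black circles were called, grey circles were tested and not called, squares were called but exceeded the filter value on control arrays only, and open circles were below the filter and not tested. All probe sets of TNFRSF10B, TNFRSF21, FAS and CASP8 lie left of 0, whereas those of CFLAR run from -0.36 to 0.06.

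By probe set, 14 of the 28 passed the filter, and 12 of these exceeded its value on at least 1 array of each group. Of those 12, 8 (66.7%) were called, 1 higher and 7 lower, beside 60.6% of all 11303 probe sets tested, of which 32.4% were called lower. The groups did not overlap on 9 of the 12, beside 67.3% of all probe sets tested. These shares over all probe sets were not limited to those above the filter value in both groups, as the 12 were. The 12 still hold 204781_s_at of FAS, called lower and without overlap. Its control arrays alone met the filter, which favoured a difference, so the counts of the 12 carry that limit. The 12 are not independent, since several report on 1 gene. Groups did not overlap on the representative probe set of 6 of the 7 tested members, beside 69.5% of all genes tested.

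**Figure D3:**
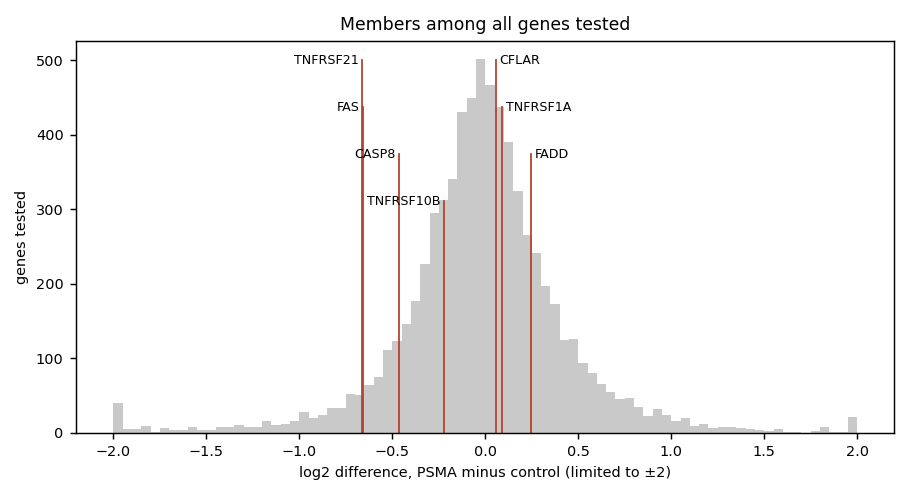
Histogram of the log2 differences (PSMA minus control, limited to ±2 on the x axis) of the 7035 genes tested, with the number of genes on the y axis and red lines at the 7 tested members. TNFRSF21 and FAS (both -0.66) lie in the lower tail, CASP8 (-0.46) on its shoulder, and CFLAR, TNFRSF1A, TNFRSF10B and FADD within the central bulk.

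The array profile of TNFRSF21, the tested member with the largest difference (level with FAS after rounding), was compared with those of all other tested genes. The genes with the highest Pearson correlation of log2 values over the 6 arrays were UFM1 (r = 0.9997, log2 difference -2.09), PIR (r = 0.9997, log2 difference -0.48) and VEGFC (r = 0.9995, log2 difference -0.86). With 2 tight groups of 3 arrays, a gene that clearly separates them has a correlation that is large in size, and negative if the gene rose. Of the other 7034 genes, 253 exceeded 0.99, with positive correlations alone counted.

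The genes next to each member were taken from the reference order of RefSeq assembly GRCh38.p14, 3 tested genes on either side. Over all genes tested 63.6% were called, 30.1% higher and 33.5% lower, against which the counts over 6 neighbours are to be read; a difference from these shares was not tested. Next to TNFRSF21 on chromosome 6, 4 of 6 neighbours fell and 0 rose, with a median log2 difference of -0.30; among them ADGRF1 had -0.82 and PLA2G7 -0.65. CFLAR and CASP8 lie close together on chromosome 2. Around CASP8, 3 of 6 neighbours fell and 0 rose (median -0.10), with TRAK2 at -0.36 and FZD7 at -0.41 on its far side, while CFLAR between CASP8 and NDUFB3 (-0.16) did not pass. Around FAS on chromosome 10, 5 of 6 neighbours did not pass and 1, LIPA (0.27), rose, and among the 6 next to TNFRSF10B 2 rose and 4 did not pass. The neighbours of FADD were mixed, with 1 higher (ANO1, 0.54), 2 lower and 3 not passing. Whether a difference in copy number of these regions goes with these values was not tested.

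**Figure D4:**
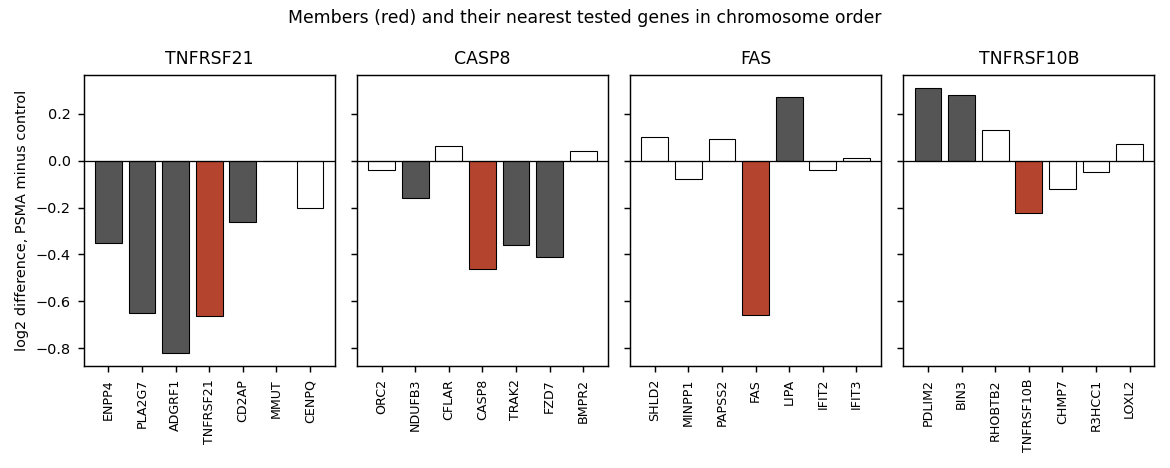
Log2 difference (y axis, PSMA minus control) of TNFRSF21, CASP8, FAS and TNFRSF10B, in red, and of the 3 nearest tested genes on either side in chromosome order; dark bars are called neighbours and white bars neighbours that did not pass (MMUT, with 0.00, shows no bar). Of the 6 genes beside each member, 4 were called lower at TNFRSF21, 3 at CASP8 and 0 at FAS and TNFRSF10B, where 33.5% of all genes tested were called lower.

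The rest of the pathway was described from lists of 95 genes, 79 with a single-gene probe set and 56 tested. Of the 56, 14 rose, 20 fell and 22 did not pass, 60.7% called beside 63.6% of all genes. Among other ligands and receptors, 3 of 16 were tested: TNFRSF12A, the TWEAK receptor, fell by 0.30 and LTBR, the lymphotoxin beta receptor, by 0.24 on the log2 scale, while TNFRSF25, another death receptor, had 0.09 and did not pass. FASLG, TNF and the decoy receptor gene TNFRSF11B were below the filter. The list for necroptosis, a caspase-independent form of cell death, had 0 genes tested.

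Of the adaptors and controllers of the receptor complexes, 10 of 17 tested genes were lower, 3 higher and 4 did not pass (76.5% called, beside 63.6% of all genes, of which 33.5% lower and 30.1% higher; median log2 difference -0.15). The list as a group was not tested. TNFAIP3, which encodes the ubiquitin-editing enzyme A20 that limits NF-kB signalling from TNFRSF1A, read 165, 130.5 and 137 on PSMA arrays and 269, 233 and 213 on control arrays. It fell by 0.73 on the log2 scale (limma adjusted p = 0.000344). The deubiquitinase gene CYLD fell by 0.52 on its brightest probe set, but the mean of its probe sets gave -0.12 and did not pass (limma adjusted p = 0.0535). TRADD, the adaptor of TNFRSF1A, fell by 0.24. CUL3, which encodes the scaffold of a ubiquitin ligase that modifies CASP8, rose by 0.49 and FAF1, a FAS-binding factor, by 0.23.

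Downstream genes went both ways, with 4 of 12 tested genes higher, 2 lower and 6 not passing (50% called, beside 63.6% of all genes; median 0.08). DIABLO, the mitochondrial antagonist of inhibitor of apoptosis proteins, read 1441, 1410 and 1366 on PSMA arrays and 912, 987 and 990.3 on control arrays. It rose by 0.55 on the log2 scale (limma adjusted p = 2.21e-05), and BIRC5, which encodes survivin, rose by 0.38. CASP4, an inflammatory caspase, fell by 0.77 and CASP2 by 0.66. BID, the substrate of CASP8 that links the pathway to mitochondria, had 0.05 and did not pass.

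Among genes for the transport and glycosylation of death receptors, 5 of 9 rose, 1 fell and 3 did not pass (66.7% called, near the 63.6% of all genes; median 0.17). GALNT14, a transferase that starts O-glycans and is known to glycosylate TRAIL receptors, read 262, 291 and 294 on PSMA arrays, against 54.1, 65.8 and 64.1 on control arrays. The groups were widely separated, with a log2 difference of 2.21 (SE 0.0811, 95% interval 2.02 to 2.39, limma adjusted p = 1.41e-07), although the control values lie close to the filter value. GALNT3, another enzyme of that family, went the other way, with 981, 998 and 932 on PSMA arrays and 1591, 1531 and 1418 on control arrays, and fell by 0.64. CAV1, the main caveolar coat protein, rose by 0.50.

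**Figure D5:**
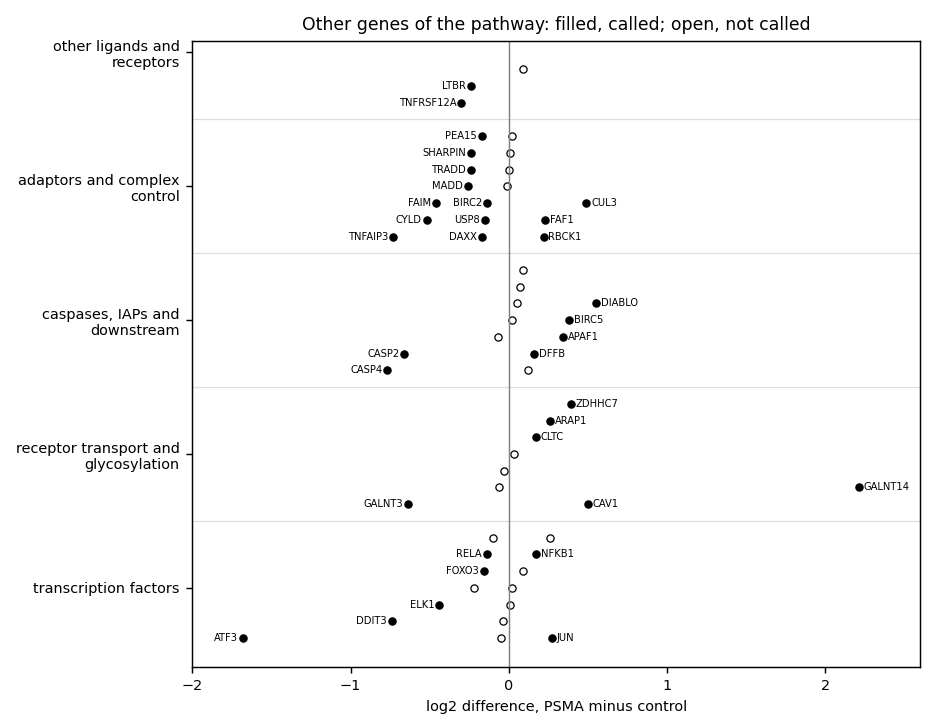
Log2 difference (x axis, PSMA minus control) of the 56 tested genes of the pathway lists, 1 list per band; filled points are called genes with their symbols, open points genes that did not pass, and height within a band has no meaning. Most points lie within 0.8 of 0, with GALNT14 (2.21) and ATF3 (-1.68) outside.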

How the data were processed

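A total of 6 RNA samples of PC3 cells, 3 labelled PSMA and 3 labelled control, were each measured on 1 array. The deposited values are intensities per probe set, for which the authors used GCRMA (background correction, normalization and probe summary) as the submitters' processing notes record; the sources used here do not give its version. The table's scale was not stated and was taken as linear from its range (3.76 to 17455, median 51.7 to 52.9 per array). Precision is limited by the 3 arrays per group, and p-values measure the spread between them, which may be technical.

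Of 22277 probe sets, 62 controls were left out, and genes were named from 19064 single-symbol probe sets. Values were log2-transformed without further normalization. The filter kept probe sets above the overall median on at least 3 arrays, and each gene was represented by its brightest single-gene probe set. Groups were compared with limma 3.58.1 (lmFit and eBayes, two-sided, R 4.3.3), adjusted by Benjamini-Hochberg over all genes or probe sets at 0.05, and the fit was tested on simulated data. Summaries and plots used matplotlib 3.10.9, pandas 2.3.3 and numpy 2.4.6 in Python 3.11.15.

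All members were named, and in each pathway list the 2 largest called increases and decreases; TNFRSF25, TRADD, BID, IRF1, TNFRSF10C and genes named as below the filter were added after seeing values. Members, lists and tests were chosen with earlier results of these data known. Alternatives covered the filter, quantile and median scaling, a floor at the 25th percentile, a pseudocount of 16, eBayes settings, a minimum fold of 1.5, averaged probe sets and leaving out each array.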

Additional observations from a re-analysis of the deposited data

How the results depend on the processing

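The count of called members stayed at 5 of those tested, 1 higher and 4 lower, with no filter, a filter on the mean, either rescaling, the floor, the pseudocount of 16, moderated settings of eBayes (trend and robust) and with each of the 6 arrays left out; averaged probe sets gave 6, with CFLAR at -0.13 (limma adjusted p = 0.0317) in place of 0.06. With averaged probe sets 85.7% of members tested were called, beside 64.4% of all genes. With no filter 9 members were tested and 55.6% called, beside 38.6% of all genes. Over the alternatives other than the minimum fold, the log2 difference ranged from -0.70 to -0.63 for TNFRSF21, -0.74 to -0.49 for FAS, -0.52 to -0.44 for CASP8, -0.54 to -0.18 for TNFRSF10B and 0.23 to 0.27 for FADD. The -0.54 of TNFRSF10B came from averaged probe sets, 2 of which passed the filter through control arrays alone. The -0.49 of FAS also came from averaged probe sets, among them 204781_s_at, whose control arrays alone met the filter. Tested against a minimum fold of 1.5, limma called 0 members (0 at an unadjusted p under 0.05) and 0 member probe sets (2 at an unadjusted p under 0.05), against 526 of all genes (7.48%) and 3 of the other pathway genes (CASP4, GALNT14 and ATF3). Member probe sets called stayed at 10 of 14 with each array left out (in the full comparison 71.4%, beside 60.6% of all probe sets). This count includes the 2 of TNFRSF10B that exceeded the filter value on control arrays alone. It also includes 204781_s_at of FAS, whose control arrays alone met the filter, although 1 PSMA array exceeded its value. Over the other pathway genes called under any setting, with TNFRSF25 and BID, 536 values kept direction and call, 70 lost the call, 8 gained it and 0 turned sign with a call. The settings counted here include the minimum fold of 1.5, under which 3 pathway genes were called in place of 34. Leaving out 1 array gave 3999 to 4442 called genes and 28 to 35 called pathway genes. No paired analysis was possible because the groups share no replicate numbers. The number of arrays and, for TNFSF10, TNFRSF10D, FAS and the dim CFLAR probe sets, the low signal limit what can be seen.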

Other observations

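Of 20 transcription factors and chromatin regulators known to act on genes of this pathway, 15 were tested, and 2 rose, 5 fell and 8 did not pass on arrays labelled PSMA (46.7% called beside 63.6% of all genes, median log2 difference -0.05). DDIT3, the stress factor CHOP known to activate TNFRSF10B, read 215, 188 and 203 on PSMA arrays and 328, 337 and 348 on control arrays, and fell by 0.74 on the log2 scale (limma adjusted p = 8.75e-06). ATF3, another stress-induced factor, averaged 88.1 ± 4.81 on PSMA arrays and 283 ± 15.1 on control arrays (SD, n = 3) and fell by 1.68. JUN, a component of AP-1, rose by 0.27. NFKB1, a subunit of NF-kB, rose by 0.17 and did not pass without PSMA replicate 6 (limma adjusted p = 0.0519) or control replicate 2 (0.0642), nor with no filter on dim probe sets (0.0549). IRF1, an interferon-induced activator of CASP8, read 61.4, 51.6 and 55.9 on PSMA arrays and 39.3, 48.8 and 53.4 on control arrays. These readings lie near the filter value, exceeded on 2 PSMA arrays and 1 control array. IRF1 did not pass, with a log2 difference of 0.26 (limma adjusted p = 0.0651). With 1 array left out it ranged from 0.14 without control replicate 1 (adjusted p = 0.184) to 0.36 without control replicate 3 (limma adjusted p = 0.0211). The relation of these factors to the members was not tested.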
